A study of Mus musculus with 8 samples.

Results

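Glycolysis, with the transporters at either end of it, was followed through 10 genes chosen by name: Slc2a1, Hk1, Hk2, Gpi1, Pfkl, Pfkp, Tpi1, Ldha, Ldhb and Slc16a1. A probe set, the group of array probes that together measure a transcript, was taken as belonging to a gene where the platform annotation gave that gene and no other. This gave 22 probe sets for 9 of the 10 genes, out of 45056 probe sets in the table and 18193 genes with a probe set of their own. Gpi1, the glucose-6-phosphate isomerase gene, had no such probe set in the tables used and was not analysed here.

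The samples were germinal centre (GC) B cells, which proliferate in lymphoid follicles after meeting antigen while their antibodies gain affinity. They came from spleens of GFPMYC/C57BL6 mice aged 8 weeks, on day 12 after immunization with Sheep Red Blood Cells, and all of them therefore carried the knock-in that fuses GFP to MYC. After magnetic enrichment of B cells, the GC gate was PNAhi/CD95hi, and GFP then separated a MYC-positive group from a MYC-negative group, with 4 arrays each. The descriptions name a partner for every sample, which makes 4 pairs. The protocol speaks of sorting each mouse and the design text of pools, so a pair may be a single mouse or a pool, and GFP reports the level of the fusion at the time of the sort. The comparison asks how cells with the fusion differed from GC B cells without it.

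Glucose enters a cell through facilitative transporters and is trapped by hexokinase, which adds a phosphate. Phosphofructokinase commits the sugar to breakdown, later enzymes turn it into pyruvate, and lactate dehydrogenase can turn pyruvate into lactate, which leaves through monocarboxylate transporters. Many of these steps exist as isoforms from separate genes with different tissue distributions and kinetics. MYC is known from other cells as an activator of several genes of this pathway, and it binds DNA with its partner MAX at E-boxes, most strongly at the letters CACGTG.

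Myc itself served only as a check of the sort, and its signal lay between 361 and 932 in MYC-positive arrays and between 33.3 and 156 in MYC-negative arrays. Array signals were scaled to trimmed means between 497 and 498, and 34.7% to 42.6% of probe sets on an array were above a signal of 100. The label as GC B cells was checked against markers. The 9 B cell markers measured summed to signals of 31357 to 40034 in MYC-positive and 43782 to 50381 in MYC-negative arrays, and the 8 GC markers to 29138 to 37762 and 34441 to 48495. Of the B cell markers 5 were lower in MYC-positive arrays and none higher (Pax5 at -1.75, Cr2 at -1.30, Fcrla, Blk and Cd22), and of the GC markers 2 were lower, Mybl1 (-2.12) and Fas (-0.61), and none higher. These counts of B cell and GC markers lower became 2 and 1 after median centring and 8 and 5 after quantile normalization. Without pair 1, and likewise without pair 2, they were 1 and 1. Plasma cell markers had 3 of 7 higher and 0 lower, namely Sdc1 (2.02), Irf4 (1.57) and Derl3 (1.16), and 5 higher after median centring. Without pair 1 there were 2 higher and without pair 2 there was 1. Without pair 4 there were 3 higher and 1 lower. The T cell markers Cd3d, Cd3e, Cd3g and Cd4 were at 28.7 or less on all 8 arrays, and of the 3 T cell markers that passed the filter Thy1 was higher. Macrophage and monocyte markers differed as well, with 22 markers that summed to 2389 to 13276 in MYC-positive and 1193 to 2402 in MYC-negative arrays. Of 16 that passed the filter for dim probe sets, 11 were higher and 1, Apoe, lower in MYC-positive arrays. The filter used the mean of all 8 arrays, so a marker nearly absent from MYC-negative arrays could pass through its MYC-positive signal alone. Without the filter 10 of 22 were higher and 1 lower, and with a filter at the 60th percentile 3 of 6 were higher. Without pair 1 the count higher was 5 of 15 and without pair 2 it was 6 of 14, against 12 of 16 after quantile normalization. Among the defining markers, Csf1r was at 74.9 to 1915 in MYC-positive and 1.27 to 76.0 in MYC-negative arrays. Its call ended without pair 1 (2.97, limma adjusted p = 0.094). C1qa (5.07), C1qb (3.86), C1qc (5.10), Cd163 (4.26) and Lyz2 (3.40) were also higher on the log2 scale, whereas Adgre1 did not pass and Itgam stayed under the filter. In RNA of sorted populations, a lower signal from fewer cells of a type and from less RNA per cell cannot be told apart.

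All 9 measured genes passed the filter on low signals, which was a mean signal of 18.7. At the gene level, where the probe set with the highest mean stands for a gene, 4 of the 9 rose in the MYC-positive samples: Hk2, Slc16a1, Ldha and Tpi1. None fell, and at an unadjusted p under 0.05 the counts were 7 higher and 0 lower, where 17% and 19.2% of all genes tested were so. Calls used limma with the pair as a block and a Benjamini-Hochberg adjusted p under 0.05 over 11754 genes, of which 11.2% were called higher and 11.5% lower. In 7 of the 9 the MYC-positive array was the higher in all 4 pairs, which held for 19.3% of all genes. The median log2 difference, MYC-positive minus MYC-negative, was 0.92 over the 9 genes and -0.06 over all genes tested. The median of the 9 was 0.58 without pair 4 and 0.57 with the mean over probe sets, and 1.36 after median centring.

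These values follow the scaling. The median of all genes moved up by 0.15 with quantile normalization and by 0.44 with each array centred on its median. Of the genes called in either direction, the share that was higher was 49.4% with signals as deposited, against 57.2% with quantile normalization and 85.4% with median centring. Leaving out pair 1, 2 or 4 gave 399, 455 or 1747 of all genes higher and 355, 422 or 2057 lower, against 1319 and 1352 with all pairs. The 4 genes that rose did so in each of these fits and under both other scalings.

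**Figure D1:**
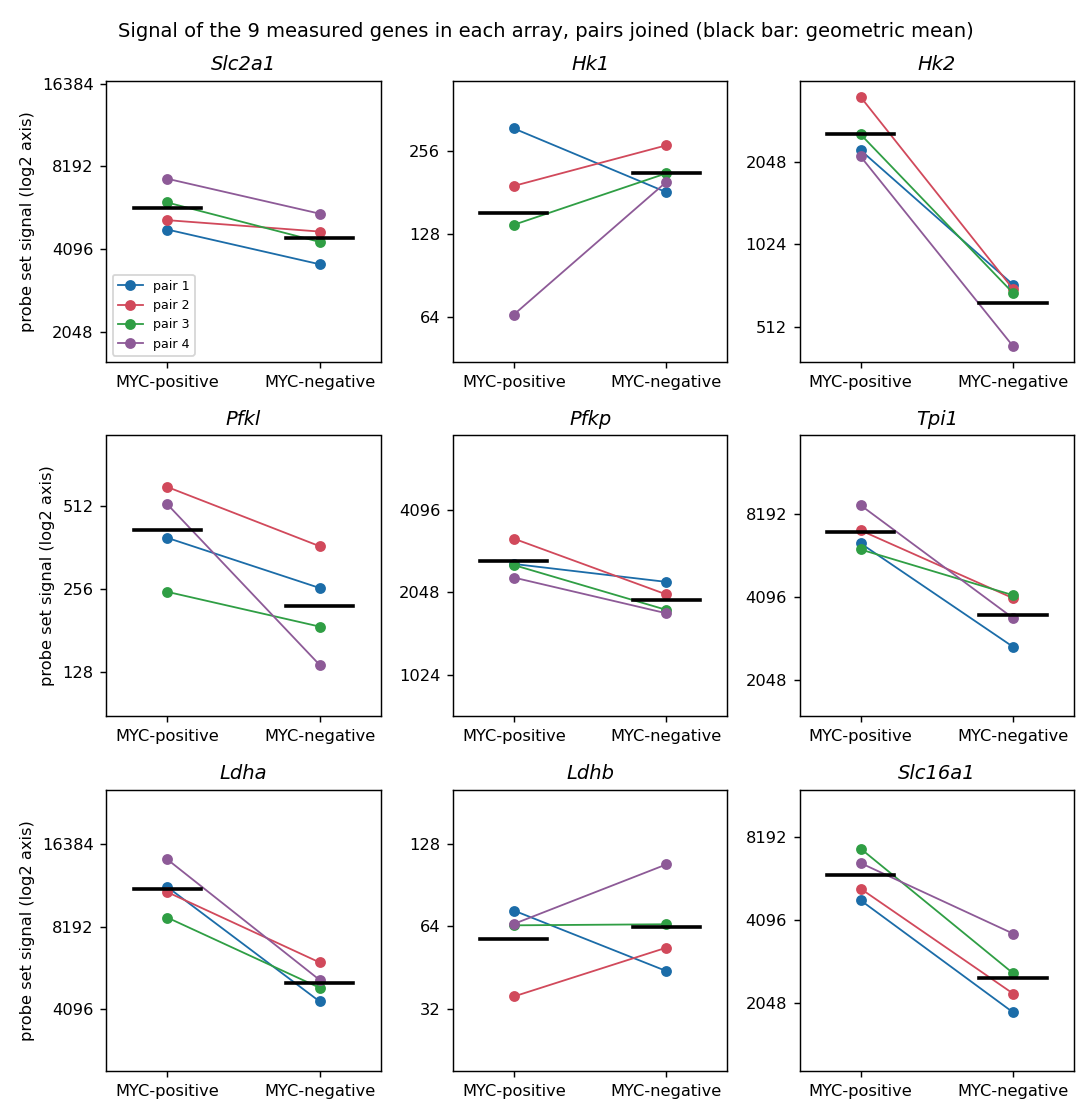
Probe set signal on a log2 axis of the 9 measured genes in each array, with MYC-positive arrays on the left of each panel and MYC-negative arrays on the right, lines joining pairs and black bars at the geometric mean of 4 arrays. The groups do not overlap for Hk2, Pfkp, Tpi1, Ldha and Slc16a1, and the lines of Hk1 and Ldhb cross.

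Uptake comes first. Slc2a1 encodes GLUT1, the widely expressed basal glucose transporter. Its brightest probe set had signals of 4825, 5220, 6054 and 7388 in the MYC-positive arrays of pairs 1 to 4, against 3605, 4743, 4348 and 5511 in the MYC-negative arrays. Every pair was higher in the MYC-positive array, but the groups overlapped, because the MYC-negative array of pair 4 exceeded the MYC-positive arrays of pairs 1 and 2. The difference was 0.36 on the log2 scale (SE 0.13, n = 4 pairs) and missed the threshold, at limma adjusted p = 0.074. Slc2a1 had 3 probe sets, and in a fit over all 27022 probe sets that passed the filter the other pair of them stood at 0.39 (adjusted p = 0.073) and 0.50 (adjusted p = 0.034). The last of these passed, in a fit in which 7.8% of probe sets were called higher and 13.6% lower. Of the 21 member probe sets in that fit 8 were called higher and 0 lower. Slc2a1 also passed with the mean over its probe sets, at 0.42 and limma adjusted p = 0.034, and after median centring, at 0.81, whereas it was at 0.24 after quantile normalization. Relative to the median of all genes the difference was 0.43 as deposited and 0.15 after quantile normalization.

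Hexokinase, the enzyme that traps the sugar, is given as 2 isoforms side by side. Hk2 encodes the inducible hexokinase found in muscle, fat and many tumours, and Hk1 the hexokinase expressed in most tissues. Hk2 signals were 2257, 3529, 2578 and 2142 in the MYC-positive arrays of pairs 1 to 4, against 731, 705, 682 and 436 in the MYC-negative arrays. The lowest MYC-positive signal was well above the highest MYC-negative one. The geometric means of 2575 and 626 gave a 4.12-fold difference (95% interval 3.07 to 5.53), which is 2.04 on the log2 scale (SE 0.19, n = 4 pairs, limma adjusted p = 0.00054). This was the largest difference among the 9 genes and the 138th most positive of 11754. Between pairs the fold ran from 3.09 in pair 1 to 5.01 in pair 2.

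Hk1 signals were 310, 192, 138 and 65.2 in the MYC-positive arrays, against 182, 269, 213 and 198 in the MYC-negative arrays. The MYC-positive arrays spread from the highest to the lowest of all 8 values, while the MYC-negative arrays lay close together. Only pair 1 had the higher signal in the MYC-positive array. The difference was -0.49 (SE 0.39, limma adjusted p = 0.42), with a 95% interval from -1.38 to 0.41, and without pair 4 it was -0.11. The dimmer of the 2 Hk1 probe sets was at 0.05 (adjusted p = 0.94). A further Hk1 probe set is annotated to several genes and was left out.

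Set side by side, the log2 difference for Hk2 exceeded that for Hk1 in each pair, by 0.86, 2.81, 2.54 and 3.90 in pairs 1 to 4. The mean was 2.53 ± 1.26 (SD, n = 4 pairs). An exact two-sided sign-flip test gave p = 0.13, which is the smallest p that 4 pairs allow, so this test could not have reached the threshold. Hk3, which encodes a hexokinase of blood cells, was at -0.62 (SE 0.36, adjusted p = 0.25), with signals of 40.1 to 71.5 in MYC-positive and 61.6 to 95.8 in MYC-negative arrays. By this probe set Hk3 was the lower in the MYC-positive array of all 4 pairs. With each pair left out the Hk3 difference ran from -0.69 to -0.57. Over all the alternative settings it ran from -0.69 to 0.87, so its direction depended on the processing.

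At the committed step neither measured member passed. Pfkl and Pfkp encode the liver-type and platelet-type subunits of phosphofructokinase, which assemble into mixed tetramers. Pfkl signals were 393, 602, 250 and 521 in MYC-positive arrays, against 258, 367, 187 and 135 in MYC-negative arrays of the same pairs. All 4 pairs pointed the same way, but the groups overlapped. The difference of 0.92 (SE 0.31, limma adjusted p = 0.064) was 0.58 without pair 4, whose fold was 3.85 where the other pairs had 1.34 to 1.64. Pfkl passed after quantile normalization, at 1.22 with adjusted p = 0.013, and after median centring, at 1.36 with adjusted p = 0.0079. Its second probe set was at 1.13 and passed in the probe set fit (adjusted p = 0.040), and the remaining one was at -0.63 (adjusted p = 0.44). With the mean over these 3 probe sets Pfkl was at 0.47 with limma adjusted p = 0.36.

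Pfkp signals were 2597, 3211, 2573 and 2317 in MYC-positive arrays, against 2234, 2012, 1767 and 1717 in MYC-negative arrays. The groups did not overlap, which was so, with the MYC-positive group higher, for 11.1% of all genes. The difference was nonetheless small, at 0.47 (SE 0.15), and missed the threshold at limma adjusted p = 0.056. It passed after quantile normalization (0.46, adjusted p = 0.045), after median centring (0.91), with a stricter filter (0.47) and without pair 4 (0.48, adjusted p = 0.025). Under the other alternatives Pfkp did not pass, and leaving out another pair took its limma adjusted p as high as 0.28. The other probe sets of Pfkp stood at 0.79 and 0.46, with adjusted p = 0.14 and 0.37. Pfkm, the muscle-type subunit gene, was at -0.16 (SE 0.34, adjusted p = 0.78).

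Tpi1 encodes triosephosphate isomerase, which interconverts the 3-carbon products of the split sugar. Its signals were 6424, 7162, 6102 and 8847 in MYC-positive arrays, against 2698, 4056, 4159 and 3433 in MYC-negative arrays. The groups were apart in every array. Tpi1 rose by 1.00 on the log2 scale (SE 0.16, limma adjusted p = 0.0044), a fold of 2.00 with a 95% interval from 1.54 to 2.58. Its 3 probe sets gave nearly the same difference, 0.94 to 1.00, and each passed in the probe set fit. Pair 3 had the smallest fold, 1.47, and pair 4 the largest, 2.58. The names of some Tpi1 and Ldhb probe sets end in x, the manufacturer's mark for probes that may match other sequences too.

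Lactate dehydrogenase also comes as isoforms. Ldha encodes the muscle-type subunit, known for favouring lactate formation, and Ldhb the heart-type subunit. Ldha signals were 11427, 10947, 8841 and 14402 in MYC-positive arrays, against 4372, 6065, 4904 and 5235 in MYC-negative arrays. No MYC-negative array came near the lowest MYC-positive one. Ldha rose 2.20-fold (95% interval 1.74 to 2.78), or 1.14 on the log2 scale (SE 0.15, n = 4 pairs, limma adjusted p = 0.0018). Pairs 1 and 4 showed folds of 2.61 and 2.75, and pairs 2 and 3 showed 1.80 each.

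Ldhb was dim on every array. Its brightest probe set had signals of 73.0, 35.5, 64.5 and 65.3 in MYC-positive arrays, against 44.0, 53.5, 65.1 and 108 in MYC-negative arrays. The order of the groups changed from pair to pair, with only pair 1 higher in the MYC-positive array. The difference was -0.15 (SE 0.40, limma adjusted p = 0.83), with a 95% interval from -1.06 to 0.77, and it turned to 0.29 after quantile normalization and after median centring and to 0.04 without pair 4. Of the other 3 Ldhb probe sets, those that passed the filter stood at -0.65 and -1.45, with adjusted p = 0.42 and 0.27, and the last did not pass it.

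The log2 difference for Ldha exceeded that for Ldhb in each pair, by 0.65, 1.44, 0.86 and 2.18. The mean was 1.28 ± 0.68 (SD, n = 4 pairs), and the exact two-sided sign-flip test again gave its smallest possible value, p = 0.13. The interval of Ldhb runs from 0.479-fold to 1.7-fold, so these arrays are compatible with any change in that range.

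**Figure D2:**
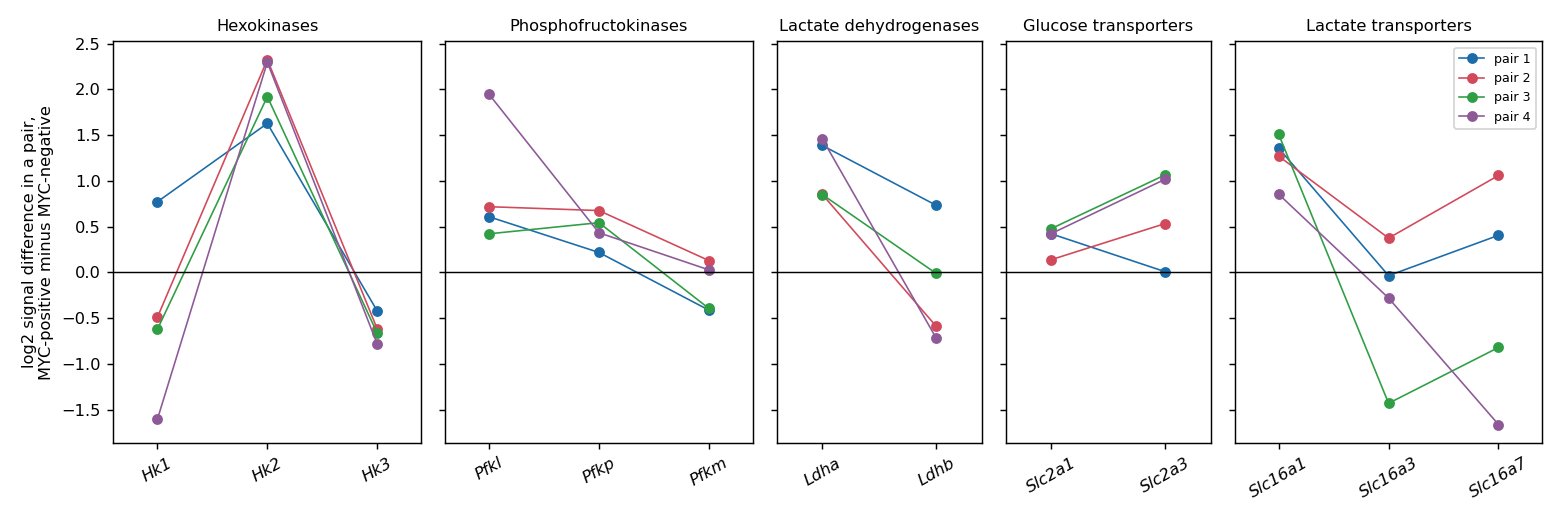
Log2 signal difference, MYC-positive minus MYC-negative, in each of the 4 pairs (coloured lines) for isoforms of hexokinase, phosphofructokinase, lactate dehydrogenase, the glucose transporter and the lactate transporter. In each pair Hk2 lies above Hk1 and Ldha above Ldhb, and Hk1 spans -1.60 to 0.77.

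Export closes the route. Slc16a1 encodes the monocarboxylate transporter MCT1, which carries lactate and pyruvate with a proton across the plasma membrane. Its signals were 4832, 5326, 7452 and 6601 in MYC-positive arrays, against 1888, 2210, 2620 and 3653 in MYC-negative arrays. Again the groups did not overlap. Slc16a1 rose 2.37-fold (95% interval 1.87 to 3.01), or 1.25 on the log2 scale (SE 0.15, n = 4 pairs, limma adjusted p = 0.0013). Pair 3 had the largest fold, 2.84, and pair 4 the smallest, 1.81. A second and dim probe set of Slc16a1 was at 1.80 (adjusted p = 0.20), with 2 of 4 pairs higher, and with the mean over both the gene was at 1.52 and missed the threshold (limma adjusted p = 0.054).

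The promoters of these genes were examined for the E-box letters CACGTG, since the groups were sorted on MYC. Windows of 250 bases upstream of an annotated transcription start were taken from RefSeq on mouse build GRCm38.p6, in which all 10 genes had at least 1 window and 12 windows were found in all. The E-box, whose letters are the same on both strands, lay in windows of 2 genes, Ldha and Slc16a1, whereas 6.86% of all genes with a window had it. Ldha held it 2 times, at positions -145 to -140 and -48 to -43 from the start, and Slc16a1 held it at -200 to -195. Both of these genes rose, and so did Hk2 and Tpi1, whose windows did not contain these letters. The shorter letters ACGTG, a form of the core at which hypoxia-inducible factors bind, were searched on both strands, and other forms of that core were not. The letters ACGTG overlap any CACGTG, and were found in 4 of the 10 genes, Hk2, Ldha, Slc16a1 and Slc2a1, and in 18.5% of all genes. A match is only a match of letters, and no binding was measured here. The Ldha and Slc16a1 windows (the plus strand of chr7:46845554-46845803 and of chr3:104638414-104638663) are shown because they hold the E-box, with its letters in capitals, and the Hk2 window (minus strand of chr6:82774455-82774704) because Hk2 had the largest difference. Each reads 5′ to 3′ and ends just before the start.
Ldha: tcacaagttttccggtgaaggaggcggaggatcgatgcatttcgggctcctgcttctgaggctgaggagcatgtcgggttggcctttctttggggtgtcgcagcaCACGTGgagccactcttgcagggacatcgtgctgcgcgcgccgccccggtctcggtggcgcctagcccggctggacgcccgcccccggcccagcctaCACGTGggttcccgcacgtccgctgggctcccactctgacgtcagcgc
Slc16a1: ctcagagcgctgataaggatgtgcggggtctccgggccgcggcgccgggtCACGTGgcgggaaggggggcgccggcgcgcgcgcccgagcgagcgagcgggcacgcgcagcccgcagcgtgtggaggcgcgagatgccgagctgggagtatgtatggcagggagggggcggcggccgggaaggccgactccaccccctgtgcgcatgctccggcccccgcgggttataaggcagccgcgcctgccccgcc
Hk2: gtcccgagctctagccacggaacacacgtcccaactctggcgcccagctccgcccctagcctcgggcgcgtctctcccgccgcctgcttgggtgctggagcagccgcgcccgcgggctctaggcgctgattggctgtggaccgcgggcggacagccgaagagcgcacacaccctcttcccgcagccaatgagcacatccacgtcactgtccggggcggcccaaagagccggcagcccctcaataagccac

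The rest of the glycolytic enzymes, given from a list of 19 of which 12 were tested, had 3 higher and 0 lower, with 4 and 2 at an unadjusted p under 0.05 and a median of 0.28 against -0.06 over all genes. They were Aldoa, Pkm and Pgam1. Aldoa encodes the aldolase that splits the sugar, and had signals of 10892, 11878, 9062 and 13399 in MYC-positive arrays, against 6550, 7711, 6061 and 5581 in MYC-negative arrays. It rose by 0.80 (SE 0.14, limma adjusted p = 0.0061), with groups that did not overlap. Pkm, the pyruvate kinase gene, was higher by 0.65 (SE 0.14, limma adjusted p = 0.013), with signals of 6554 to 8269 in MYC-positive and 4224 to 5434 in MYC-negative arrays. Pgam1, a phosphoglycerate mutase gene, was higher by 0.54 (SE 0.14, limma adjusted p = 0.023), although its groups overlapped.

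The phosphoglycerate kinase gene Pgk1 stood just outside the threshold, at 0.41 (SE 0.13, adjusted p = 0.053). Aldoc, an aldolase gene known from brain, was at -0.77 (adjusted p = 0.14), and Bpgm, whose enzyme diverts a glycolytic intermediate to bisphosphoglycerate, at -0.38 (adjusted p = 0.099). Both were lower in the MYC-positive array of all 4 pairs. The count of these enzymes moved with single pairs. It was 0 without pair 1, where Aldoa had limma adjusted p = 0.055, Pkm 0.10 and Pgam1 0.16. Without pair 2 it was 1, Aldoa, and without pair 3 it was 2, Aldoa and Pkm. Without pair 4 it was 4 higher, Pgk1 being the fourth, and 2 lower, Aldoc and Bpgm. Without the intensity trend in the fit it was 0, and without the pair block it was 2, since Pgam1 then had limma adjusted p = 0.13. Pgk1 passed after quantile normalization and after median centring, whereas leaving out a pair other than pair 4 took its limma adjusted p as high as 0.26.

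**Figure D3:**
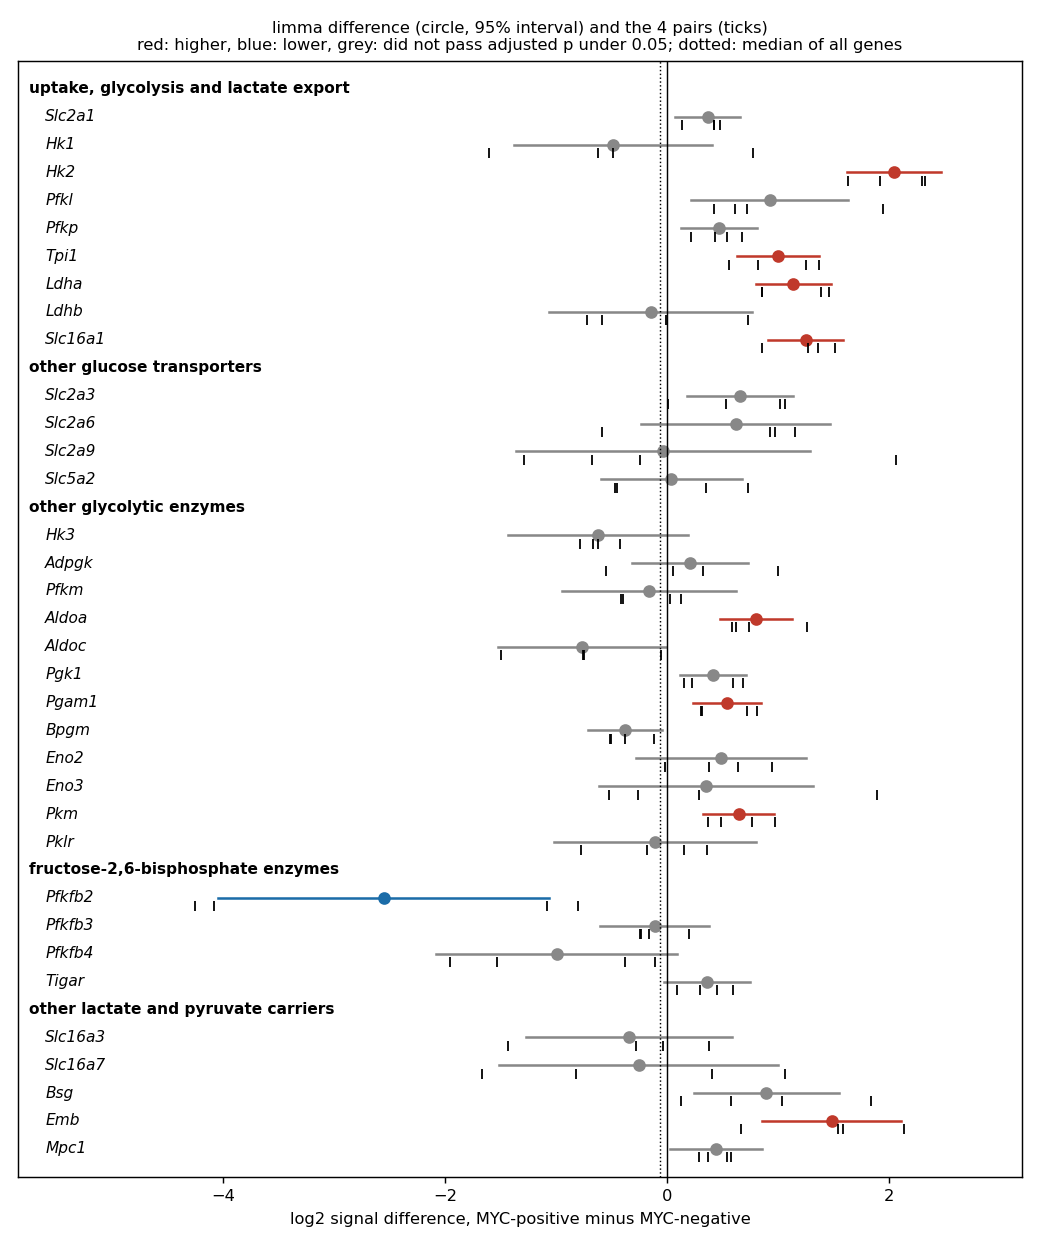
Log2 signal difference, MYC-positive minus MYC-negative, for the 9 measured genes and the tested genes of 4 further lists, with circles and bars for the limma estimate and its 95% interval, ticks for the 4 pairs and a dotted line at -0.06, the median of all genes. Red circles (Hk2, Tpi1, Ldha, Slc16a1, Aldoa, Pgam1, Pkm and Emb) passed as higher, the blue circle (Pfkfb2) as lower, and grey ones did not pass.

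Among 12 other glucose transporter genes 4 were tested and none passed (at an unadjusted p under 0.05, 1 was higher and 0 lower). That 1 was Slc2a3, the gene of the high-affinity transporter GLUT3, with signals of 1564, 1805, 2208 and 2073 in MYC-positive arrays, against 1557, 1247, 1055 and 1024 in MYC-negative arrays. The groups were apart, but by very little in pair 1, and the difference of 0.66 (SE 0.21) had limma adjusted p = 0.054, and without pair 4 it passed at 0.53 (adjusted p = 0.042), as it did after either other scaling. Leaving out another pair took the limma adjusted p of Slc2a3 as high as 0.17. Over all the alternative settings its difference ran from 0.29 to 1.10, with limma adjusted p up to 0.32. Of 9 other genes of lactate and pyruvate carriers and their partners 5 were tested. Emb encodes embigin, a partner protein that monocarboxylate transporters need at the membrane, and was the only one that passed. Its signals were 941, 714, 741 and 715 in MYC-positive arrays, against 214, 238, 256 and 451 in MYC-negative arrays, a difference of 1.48 (SE 0.28, limma adjusted p = 0.0071). The call ended without pair 1 (adjusted p = 0.059) and without pair 2 (0.053). Bsg, which encodes basigin, the better known partner of MCT1, was at 0.89 with limma adjusted p = 0.053, and passed without pair 3 and after either other scaling. Leaving out another pair took Bsg as low as 0.58, with limma adjusted p up to 0.21. The export genes Slc16a3 (MCT4) and Slc16a7 (MCT2) were at -0.34 and -0.26, with adjusted p = 0.59 and 0.78.

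Enzymes that set fructose-2,6-bisphosphate, the activator of phosphofructokinase, had 4 of 5 genes tested, with 0 higher and 1 lower. That was Pfkfb2, whose signals of 9.48, 48.5, 71.0 and 3.82 in MYC-positive arrays stood against 160, 103, 123 and 72.8 in MYC-negative arrays. The groups did not overlap, but MYC-positive pairs 1 and 4 lay under the filter level. The size of the difference (-2.55, SE 0.66, limma adjusted p = 0.024) is therefore poorly determined. The call ended without pair 1 (-2.05, adjusted p = 0.14), without the pair block (adjusted p = 0.0502) and without the intensity trend (adjusted p = 0.069). Pfkfb3, the isoform of activated and dividing cells, was at -0.11 (adjusted p = 0.76), and Tigar, whose enzyme lowers the activator, at 0.36 (adjusted p = 0.17), which passed without pair 4 at 0.45 (adjusted p = 0.047). Leaving out another pair took the limma adjusted p of Tigar as high as 0.51.

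At the fork where pyruvate may enter mitochondria, 10 of 11 genes of pyruvate dehydrogenase and its kinases and phosphatases were tested and none passed. At an unadjusted p under 0.05, 3 were higher and 0 lower, namely Pdha1 (0.45), Pdhb (0.46) and the kinase gene Pdk1 (0.56), with limma adjusted p = 0.065, 0.055 and 0.081. All 3 passed without pair 4, at 0.46, 0.42 and 0.76, and all 3 and Dld passed after median centring. Leaving out another pair took their limma adjusted p as high as 0.27, 0.24 and 0.28. Over all the alternative settings Pdha1 ran from 0.39 to 0.89, Pdhb from -0.48 to 0.90 and Pdk1 from 0.14 to 1.00. Of 7 gluconeogenic genes 3 were tested and none passed, with 0 in either direction at an unadjusted p under 0.05.

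Hypoxia-inducible factors are also known to raise glycolytic genes, so their list was set beside the pathway. Of 9 hypoxia factors and regulators, all tested, 0 were higher and 1 lower, with a median of -0.52. At an unadjusted p under 0.05, 1 was higher and 4 lower. Hif1a, the factor gene itself, was at -0.12 (SE 0.15, limma adjusted p = 0.61), with signals of 5843 to 8400 in MYC-positive and 6621 to 9930 in MYC-negative arrays. The gene called lower was Hif1an, an asparagine hydroxylase that restrains HIF, at -0.82 (limma adjusted p = 0.031), a call that ended without pair 1, 2 or 3 and after either other scaling. Without pair 4 the oxygen sensor genes Egln2 (-0.69) and Egln3 (-2.20) were called lower as well. In other settings further genes of this list were called lower. They were Epas1 with a floor of 16 (-1.27), Epas1 (-1.52) and Arnt (-0.74) with the mean over probe sets, and Vhl after quantile normalization (-0.41). Of 12 HIF target genes outside glycolysis 9 were tested, with 1 higher, 1 lower and a median of -0.37, which became 0.07 after median centring. Adm, the adrenomedullin gene, rose by 3.26 (SE 0.33, limma adjusted p = 0.00074), with signals of 207 to 885 in MYC-positive and 15.8 to 90.1 in MYC-negative arrays. With the mean over its probe sets Adm was higher by 2.11 (limma adjusted p = 0.0052). Ndrg1, which is known both as a hypoxia-induced and as a MYC-repressed gene, fell by 1.42 (SE 0.22, limma adjusted p = 0.0038), with signals of 211 to 422 in MYC-positive and 605 to 1190 in MYC-negative arrays, and missed the threshold with the mean over its probe sets (-0.76, adjusted p = 0.076). Without pair 4 the targets Ankrd37 (-0.73), Ddit4 (-0.60) and Kdm3a (-0.67) passed as lower too. After median centring 0 of the factors and regulators were lower and 1, Egln1, was higher.

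The macrophage markers were set beside the 4 genes that rose, pair by pair. Their summed signal was 13276, 6158, 2389 and 4565 in the MYC-positive arrays of pairs 1 to 4, against 2402, 2315, 1730 and 1193 in the MYC-negative arrays. These sums hold genes with signal in both groups, such as Mpeg1, Cd68 and Apoe, and single markers differed more. Lyz2 was at 1780, 1046, 408 and 628 in MYC-positive arrays, against 333, 74.0, 25.9 and 59.7 in MYC-negative arrays. Csf1r was at 1915, 715, 74.9 and 429 in MYC-positive arrays, against 76.0, 2.89, 3.09 and 1.27 in MYC-negative arrays. Thus both markers were higher in the MYC-positive array of every pair. They differed in the order of the pairs: the log2 difference of Lyz2 was smallest in pair 1 (2.42) and that of Csf1r in pair 3 (4.60). Csf1r was nearly as small in pair 1 (4.65), and its MYC-negative signals in pairs 2 to 4 lay under the filter level. Over the 16 tested markers the median log2 difference was 3.50, 3.29, 1.76 and 2.47 in pairs 1 to 4. The summed signal of the markers was higher 5.5-fold, 2.7-fold, 1.4-fold and 3.8-fold in these pairs. Of the 16 tested markers, 15, 15, 12 and 15 were higher in the MYC-positive array of pairs 1 to 4. In the same pairs the log2 differences of Hk2 were 1.63, 2.32, 1.92 and 2.30, and those of Slc16a1 were 1.36, 1.27, 1.51 and 0.85. Those of Ldha were 1.39, 0.85, 0.85 and 1.46, and those of Tpi1 were 1.25, 0.82, 0.55 and 1.37. The 11 markers that rose and the 4 genes were thus higher in the MYC-positive array of every pair. Both sets were picked by their calls in these same pairs, so the shared direction was largely set by that choice. Among the tested markers that did not pass, Adgre1 (-1.30), Cd68 (-0.34) and Mpeg1 (-0.29) were lower in pair 3, and Fcgr1 (0.12) was higher. The part of the markers' cells in the differences was not tested. Without pair 1 the log2 differences were 2.18 for Hk2, 1.21 for Slc16a1, 1.05 for Ldha and 0.91 for Tpi1, with limma adjusted p = 0.0098, 0.024, 0.030 and 0.049.

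**Figure D4:**
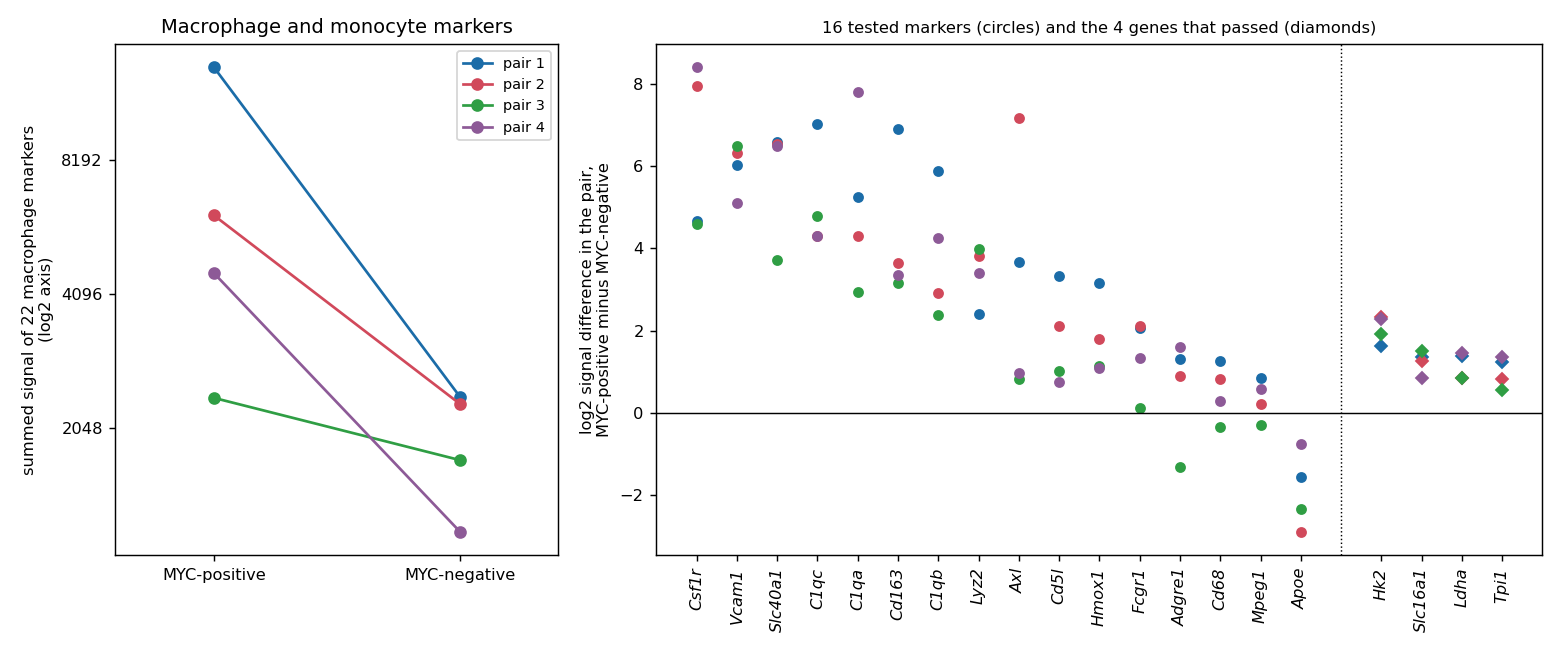
Left, summed signal of 22 macrophage and monocyte marker genes in MYC-positive and MYC-negative arrays on a log2 axis, with lines joining pairs. Right, the log2 signal difference, MYC-positive minus MYC-negative, in each pair (colours as on the left) of the 16 tested markers (circles) and of Hk2, Slc16a1, Ldha and Tpi1 (diamonds). From Csf1r to Hmox1, 11 markers lie above 0 in all 4 pairs, as do the 4 genes, and Apoe lies below 0.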

How the data were processed

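RNA of 8 sorted samples was hybridised to Affymetrix mouse arrays after amplification from 5 to 20 ng of total RNA, per the labels' protocols. The authors deposited one linear intensity per probe set and array. MAS5 appears in the submitters' processing notes, with its version not given in the sources used here. Detection calls were not used, and 4 arrays a group limit the precision.

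Of 45056 probe sets 19 were controls, 34945 had 1 gene symbol, 932 several and 9160 none. A floor of 1 was applied before taking log2. Probe sets above the 40th percentile of mean log2 value (27022) were kept, and the one with the highest mean stood for each of 11754 genes. Each alternative fit, apart from the mean over probe sets, made this choice anew. Group and pair were the terms of a linear model in limma 3.58.1 under R 4.3.3 (eBayes with an intensity trend, 3 residual degrees of freedom), with Benjamini-Hochberg adjustment over all genes and 2-sided tests. A second fit took every kept probe set. Pairs come from the descriptions. Deviations of paired arrays from their group means correlated at 0.26, 0.17, 0.09 and 0.12. Where pairs are not separate animals, the p-values describe no more than sample-to-sample spread, which may be technical.

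The genes and lists were chosen with earlier results of these data known. Named were all measured members, the called genes of each further list (at most 4), and genes singled out where a count was small. Slc2a3, Pgk1, Aldoc, Bpgm, Bsg and others that did not pass were named after their values were seen. The procedure was tested on simulated data. Alternatives were 2 other scalings, the mean over probe sets, no filter, a filter at the 60th percentile, a floor of 16, no pair block, no trend and each pair left out.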

Additional observations from a re-analysis of the deposited data

Results flagged for a closer look

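In 18 groups of 4 arrays (9 genes in both groups), 1 array stood far from the other 3. The Hk2 signal of 436 in the MYC-negative array of pair 4 lay below the 682 to 731 of the other MYC-negative arrays, with a gap of 0.864 of the group's range on the log2 scale. Chance flags about 1 group in 20. Without pair 4 the Hk2 difference was 1.96.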

How the results depend on the processing

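Hk2, Ldha, Tpi1 and Hk1 kept their direction and their side of the threshold under all 12 alternatives, and Slc16a1 under all but the mean over probe sets (1.52, adjusted p = 0.054). After median centring Slc2a1 (0.81), Pfkl (1.36) and Pfkp (0.91) passed, which brought the members called higher to 7, with 3204 of all genes higher and 546 lower. Pfkl (1.22) and Pfkp (0.46) passed after quantile normalization, Slc2a1 (0.42) with the mean over probe sets and Pfkp (0.47) with the filter at the 60th percentile. Ldhb turned to 0.29 under both scalings and to 0.043 without pair 4. The cause was not tested. Without the replicate block 901 of all genes were lower (1055 higher), the paired contrasts kept their means (2.53 for Hk2 against Hk1 and 1.28 for Ldha against Ldhb), and an exact permutation of 4 against 4 arrays gave each p = 0.029, the smallest it allows. The block changed no call among the 9 genes. Among the genes of the other pathway and hypoxia lists, the calls of Pgam1, Pfkfb2 and Hif1an ended without it, and Slc2a3 passed. Without the intensity trend 736 genes were higher and 771 lower. With each pair left out in turn, the differences ran from 0.33 to 0.44 for Slc2a1, -0.91 to -0.11 for Hk1, 1.95 to 2.18 for Hk2, 0.58 to 1.09 for Pfkl, 0.40 to 0.55 for Pfkp, 0.88 to 1.15 for Tpi1, 1.03 to 1.23 for Ldha, -0.44 to 0.04 for Ldhb and 1.16 to 1.38 for Slc16a1. The members called were 4 to 5, all higher, and the counts over all genes were 399 to 1747 higher and 355 to 2057 lower. The paired contrasts ran from 2.07 to 3.09 and from 0.99 to 1.49. Ldhb was not tested with the stricter filter, and its dim signal limits what these arrays can show of it.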
